A study of Homo sapiens with 14 samples.

Results

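A core of 10 genes of the Notch pathway was followed here: the ligand genes JAG1, JAG2 and DLL1, the receptor genes NOTCH1, NOTCH2 and NOTCH3, the nuclear factor gene RBPJ, and the target genes HES1, HES2 and HEY1. They were chosen by name, as 10 of the 17423 genes listed in at least 1 of 2 deposited expression tables. The overexpression table lists all 10 and the knockdown table lists 9, without DLL1. The cells were UM1, an established human line that derives from a squamous cell carcinoma of the tongue. RNA-seq was made on 3 libraries overexpressing ΔNp63α and 3 libraries carrying a vector, and on 2 libraries with a short hairpin against PRMT5 (shPRMT5) and 2 libraries with a hairpin against GFP (shGFP). ΔNp63α is the form of the transcription factor p63 that prevails in basal squamous epithelium, and PRMT5 is an enzyme that adds symmetric dimethyl marks to arginines. The series asks how PRMT5 bears on gene regulation by ΔNp63α. All 4 groups share the UM1 background, and the labels name no clone, no promoter for the overexpressed gene and no time after transduction. The 4 CUT&Tag samples of the series are not analysed here.

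Notch is a signal between touching cells. A Jagged or Delta ligand on one cell binds a Notch receptor on its neighbour, proteases then cut the receptor, and its freed intracellular domain enters the nucleus, where it joins RBPJ and a Mastermind protein on DNA and turns on genes of the HES and HEY families. In stratified epithelium Notch activity goes with the exit of cells from the basal layer, whereas p63 is high in the basal layer, and the pathways are known to oppose each other in keratinocytes.

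Values are TPM, a measure of abundance scaled to the same total in every library, which corrects for gene length, so levels of different genes can be set side by side within a table. The tables were normalised separately, so no level was compared between them. Absolute depth is unknown from TPM, and no counting interval can be given. PRMT5 stood at 29.3 and 33.6 TPM in shPRMT5 libraries, against 142.8 and 126.0 TPM in shGFP libraries (log2 fold -2.06, SE 0.18, limma adjusted p = 9.74e-09). TP63 stood at 152.3, 160.4 and 167.8 TPM in ΔNp63α libraries, against 138.0, 82.3 and 97.3 TPM in vector libraries (log2 fold 0.62, SE 0.18, limma adjusted p = 0.0300), and this call was kept only without vector replicate 1 among the 6 fits that left out 1 library (log2 fold 0.46 to 0.83). PRMT5 was itself higher under ΔNp63α (log2 fold 0.63, limma adjusted p = 0.0325), a call kept in 2 of these 6 fits. TP63 did not differ in the knockdown by limma (log2 fold 0.02, adjusted p = 0.952). All 10 squamous markers examined were listed in both tables. Their summed level ran from 18577 to 34029 TPM under ΔNp63α against 7877 to 14774 TPM with vector. Under shPRMT5 it ran from 13474 to 13633 TPM, against 12814 to 14393 TPM under shGFP. The sums hide single markers. At a limma adjusted p under 0.05, 5 of 10 tested were higher and 1 lower under ΔNp63α. Of 9 tested in the knockdown, 1 was higher and 0 lower. That 1 was KRT5, at 2792 and 2886 TPM under shPRMT5, against 1657 and 1386 TPM under shGFP (log2 fold 0.90, limma adjusted p = 2.3e-05). Neither table listed the fibroblast genes COL1A2, DCN and PDGFRA, the endothelial genes CDH5, KDR and TEK or the leukocyte genes PTPRC, CD3E, CD68 and LYZ. The 4 of 7 fibroblast genes listed summed to 43.1 to 62.0 TPM under ΔNp63α against 30.2 to 38.7 TPM with vector, and the 3 of 7 leukocyte genes listed to 10.9 to 12.4 TPM against 14.9 to 19.8 TPM. The part of these marker shifts in the results was not tested. Replicates are biological by their titles, but separate cultures are not mentioned, so each p-value reflects the spread among the sampled libraries alone and that spread could be technical.

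With the vector, HES1 (121.8 ± 13.9 TPM) and JAG2 (115.9 ± 22.6 TPM, SD, n = 3 each here and below) were the most abundant of the 10 transcripts, and their ranges overlapped. NOTCH2 (35.8 ± 13.7 TPM), NOTCH1 (33.0 ± 11.0 TPM), DLL1 (30.8 ± 3.36 TPM) and HES2 (29.1 ± 7.97 TPM) followed with ranges that overlapped one another. JAG1 (13.4 ± 0.115 TPM) and RBPJ (10.4 ± 1.94 TPM) did not overlap, nor did HEY1 (4.26 ± 1.68 TPM) and NOTCH3 (1.80 ± 0.547 TPM) at the low end. Under ΔNp63α the order changed at the top, where JAG2 (95.9 ± 7.15 TPM) lay above HES1 (58.4 ± 1.65 TPM) with no overlap. Next came NOTCH2 (26.1 ± 2.63 TPM), then DLL1, NOTCH1 and HES2 at 19.3 to 19.7 TPM with overlapping ranges. RBPJ (7.58 ± 0.875 TPM) and JAG1 (6.02 ± 1.11 TPM) overlapped each other there. In the shPRMT5 libraries JAG2 (193.4 ± 8.06 TPM, SD, n = 2) also lay above HES1 (61.7 ± 5.40 TPM, SD, n = 2), as it did in the shGFP libraries (165.0 ± 30.8 TPM against 75.3 ± 5.41 TPM, SD, n = 2 each).

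**Figure D1:**
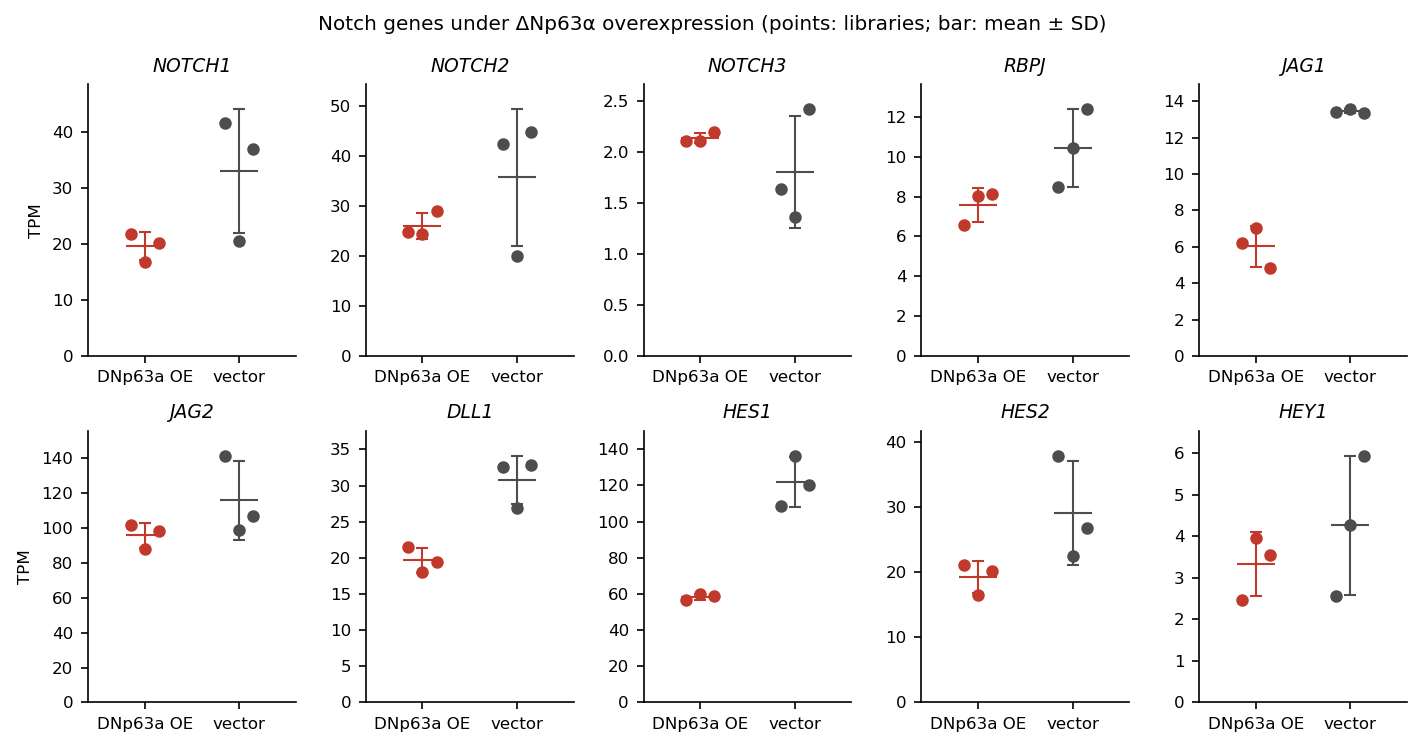
TPM of the 10 Notch genes in each ΔNp63α (DNp63a OE) and vector library. Points are libraries, and bars give the mean and SD of 3 libraries per group. JAG1, DLL1, HES1, HES2 and RBPJ show no overlap between groups, and vector replicate 2 (the middle vector point) is the lowest vector library for NOTCH1, NOTCH2, NOTCH3, JAG2, DLL1 and HES2.

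Under ΔNp63α the ligand genes JAG1 and DLL1 and the target gene HES1 fell, and no member rose. HES1 fell to 0.479 and JAG1 to 0.448 of the vector level, and DLL1 fell to 0.639 of it. The test was limma on log2(TPM + 1) over all 13382 genes with a mean of at least 1 TPM, and a gene is called where its Benjamini-Hochberg adjusted p is under 0.05. All 10 members passed that filter, and 3 were called lower, where 14.1% of all genes tested were called lower, 7.34% higher and 21.5% in either direction. In 5 of the 10 the groups did not overlap, each lower under ΔNp63α, where 23.7% of all genes tested had groups apart in that direction. The log2 fold was negative in 9 of 10 members, with a median of -0.48 against -0.04 for all genes tested. In RNA from a whole culture, fewer cells with a transcript and less of it per cell cannot be told apart.

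Of the ligands, JAG1, a Jagged ligand that binds Notch receptors on neighbouring cells, was at 6.20, 7.03 and 4.83 TPM in ΔNp63α libraries, against 13.4, 13.6 and 13.3 TPM in vector libraries. The vector libraries were nearly equal, and every ΔNp63α library lay well below them. The log2 fold was -1.05 (SE 0.18, limma adjusted p = 0.00191). DLL1, a Delta-like ligand, was at 21.5, 18.1 and 19.4 TPM under ΔNp63α, against 32.6, 26.9 and 32.9 TPM with vector. The groups did not overlap, and vector replicate 2 was the lowest of its group. Its log2 fold was -0.62 (SE 0.16, limma adjusted p = 0.0180), and the call was lost without ΔNp63α replicate 2 (adjusted p = 0.0605), ΔNp63α replicate 3 (0.0809) or vector replicate 3 (0.0853). JAG2, the most abundant ligand transcript, was at 101.5, 87.9 and 98.3 TPM under ΔNp63α, against 141.5, 99.1 and 107.0 TPM with vector. Vector replicate 2 lay within the ΔNp63α range, and the log2 fold of -0.26 (95% interval -0.61 to 0.10) was not called (limma adjusted p = 0.292).

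The same ligand values can be read as shares of their sum, which adds no separate result. JAG2 made up 78.6%, 77.8% and 80.2% of the summed ligand TPM in ΔNp63α libraries, against 75.5%, 71.0% and 69.8% in vector libraries. JAG1 made up 4.80%, 6.22% and 3.94% under ΔNp63α, against 7.16%, 9.72% and 8.71% with vector. The JAG2 share was higher, and the JAG1 share lower, in every ΔNp63α library than in any vector library, which is given as a description without a test.

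The calls of the receptor genes NOTCH1 and NOTCH2 were sensitive to 1 vector library. NOTCH1, the receptor best known for driving keratinocyte differentiation, was at 21.8, 16.8 and 20.2 TPM under ΔNp63α, against 41.6, 20.6 and 36.9 TPM with vector. NOTCH2 was at 24.8, 24.4 and 29.1 TPM under ΔNp63α, against 42.5, 20.0 and 44.8 TPM with vector. In both genes vector replicates 1 and 3 lay above every ΔNp63α library and vector replicate 2 lay among or below them. Neither was called (NOTCH1 log2 fold -0.67, SE 0.24, limma adjusted p = 0.0636; NOTCH2 log2 fold -0.36, SE 0.26, limma adjusted p = 0.352). Without vector replicate 2 both were called lower, NOTCH1 at -0.97 (adjusted p = 0.00490) and NOTCH2 at -0.73 (adjusted p = 0.0138). NOTCH1 was also called when mitochondrially encoded genes were left out of the scaling (-0.75, adjusted p = 0.0390). Some pathway genes that were picked after their values were seen were low in the same library: the coactivator gene EP300 was at 16.2, 12.6 and 18.4 TPM under ΔNp63α, against 21.4, 7.72 and 19.2 TPM with vector, and the corepressor gene SPEN at 19.0, 15.9 and 21.9 TPM against 28.5, 10.2 and 30.6 TPM. Other genes went the other way: HES1 (136.5 TPM) and JAG1 (13.6 TPM) were highest in vector replicate 2 among the vector libraries. The part of that library in the NOTCH1 and NOTCH2 values beyond these fits was not tested.

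NOTCH3 was the scarcest receptor transcript, at 2.10, 2.11 and 2.20 TPM under ΔNp63α, against 1.63, 1.36 and 2.42 TPM with vector. It was the 1 member with a positive log2 fold (0.18, SE 0.21, limma adjusted p = 0.600), and its ΔNp63α values lay inside the vector range. Of the summed receptor TPM, NOTCH1 made up 44.8%, 38.8% and 39.2% under ΔNp63α, against 48.5%, 49.0% and 43.8% with vector. These NOTCH1 shares overlap, and NOTCH1 and NOTCH2 together supplied nearly all receptor transcripts in each library. The small NOTCH3 share did not overlap, at 4.32%, 4.87% and 4.26% under ΔNp63α against 1.90%, 3.25% and 2.88% with vector. It is given as a description without a test.

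RBPJ, the DNA-binding partner of the Notch intracellular domain, was at 6.57, 8.05 and 8.12 TPM under ΔNp63α, against 8.50, 10.4 and 12.4 TPM with vector. Each ΔNp63α library lay below each vector library, but the gap was small beside the spread. Its log2 fold of -0.41 (95% interval -0.82 to 0.01) was not called (limma adjusted p = 0.152).

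Among the targets, HES1, a repressor of the basic helix-loop-helix family and the classic Notch target, showed the clearest fall. It was at 56.6, 59.8 and 58.7 TPM under ΔNp63α, against 108.8, 136.5 and 120.3 TPM with vector. The groups lay far apart, with little spread under ΔNp63α. The log2 fold was -1.04 (SE 0.14, limma adjusted p = 0.000458). HES2, a family member, was at 21.1, 16.6 and 20.2 TPM under ΔNp63α, against 37.9, 22.4 and 26.9 TPM with vector. The groups did not overlap, but the vector libraries were spread widely, and the log2 fold of -0.54 (SE 0.20, limma adjusted p = 0.0756) was called only in some other fits, among them the fit without vector replicate 2 (-0.71, adjusted p = 0.0322). HEY1, a repressor related to the HES proteins, was at 2.47, 3.95 and 3.56 TPM under ΔNp63α, against 2.57, 4.28 and 5.94 TPM with vector. These groups overlapped, and its log2 fold was -0.25 (SE 0.26, limma adjusted p = 0.545).

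**Figure D2:**
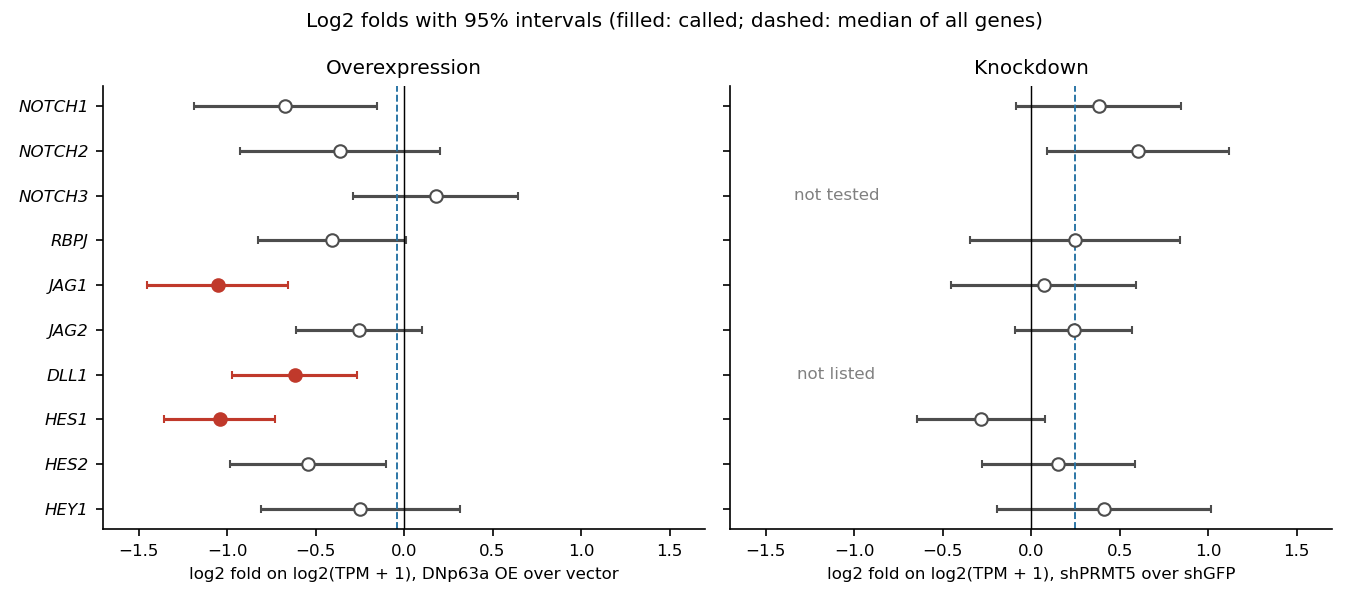
Log2 fold on the log2(TPM + 1) scale of each Notch gene, ΔNp63α (DNp63a OE) over vector at left and shPRMT5 over shGFP at right. Bars are 95% intervals, filled points are called, and the dashed line is the median of all genes tested (-0.04 at left, 0.25 at right). JAG1, DLL1 and HES1 are called lower at left, and no gene is called at right.

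The promoters of HES1 and of a second HES gene that fell, HES4, are shown because both carry the paired arrangement of RBPJ letters for which the HES1 promoter is known, and those of HES2 and JAG1 are shown for contrast. The sequences are from RefSeq on GRCh38.p14, in which 8 members, all but DLL1 and HEY1, were matched with 12 promoter entries. Each line gives the 250 bases before the annotated start, 5′ to 3′ on the strand of the gene. Capitals mark the RBPJ core TGGGAA and its variant TGTGAA on either strand (TTCCCA and TTCACA when read in reverse). HES1 is at chr3:194135898-194136147 on the plus strand, and HES4 at chr1:1000098-1000347, HES2 at chr1:6419920-6420169 and JAG1 at chr20:10674000-10674249 on the minus strand.
HES1: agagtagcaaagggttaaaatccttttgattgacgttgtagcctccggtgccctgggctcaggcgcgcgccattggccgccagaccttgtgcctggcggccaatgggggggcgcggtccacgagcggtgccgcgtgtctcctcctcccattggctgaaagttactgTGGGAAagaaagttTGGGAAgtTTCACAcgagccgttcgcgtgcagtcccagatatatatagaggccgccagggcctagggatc
HES4: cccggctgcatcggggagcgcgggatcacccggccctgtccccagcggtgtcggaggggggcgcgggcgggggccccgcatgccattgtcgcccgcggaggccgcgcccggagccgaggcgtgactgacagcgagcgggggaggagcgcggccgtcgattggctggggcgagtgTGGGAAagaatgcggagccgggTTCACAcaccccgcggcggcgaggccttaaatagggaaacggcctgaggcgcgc
HES2: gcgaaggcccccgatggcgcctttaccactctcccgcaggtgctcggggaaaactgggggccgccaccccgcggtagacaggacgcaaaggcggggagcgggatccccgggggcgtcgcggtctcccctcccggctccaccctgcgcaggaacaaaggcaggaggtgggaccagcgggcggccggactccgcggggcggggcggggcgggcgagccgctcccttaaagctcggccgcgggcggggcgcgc
JAG1: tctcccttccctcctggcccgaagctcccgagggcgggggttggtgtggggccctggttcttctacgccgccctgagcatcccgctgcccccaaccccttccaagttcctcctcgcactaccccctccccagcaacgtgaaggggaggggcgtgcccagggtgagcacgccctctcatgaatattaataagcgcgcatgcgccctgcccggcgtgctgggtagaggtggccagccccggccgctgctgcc

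The search covered 250 bases before to 50 bases after each start. The core TGGGAA on one strand, facing the variant TGTGAA on the other across 16 bases, lay 84 to 57 bases before the start of HES1 and 76 to 49 bases before that of HES4. The gap of 16 bases was read from the HES1 promoter itself, so its presence there is no finding. A facing pair with either form on each side and this gap was held by 9 of 35116 RefSeq promoter windows (0.0256%), and a gap of 14 to 18 bases by 32 (0.0911%). Each motif alone is common: TGGGAA was found in 24.0%, TGTGAA in 13.1% and the HES-binding N-box CACNAG in 38.0% of windows. Of the 8 members searched, which leave out HEY1 and DLL1, only HES1 and RBPJ held TGGGAA. HES2 held a single N-box, and JAG1, which fell as much as HES1, held none of these motifs. HES7, another HES gene called lower under ΔNp63α (log2 fold -0.97), held 1 N-box but no TGGGAA, no TGTGAA and no facing pair. Of other pathway genes called lower and described below, DTX2 held 1 TGGGAA, and FURIN held TGGGAA in some of its 4 entries. Neither held the facing pair. CDKN1A and NOTCH4 held 1 N-box each, without TGGGAA or TGTGAA. Not every gene called lower was searched. Whether the facing pair bears on the falls was not tested. A match describes letters in this window and not a site in use.

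Of 76 further Notch pathway genes on lists drawn up by role, 65 were tested under ΔNp63α, and 12 were called lower and 1 higher. This share of 20% called is close to the 21.5% of all genes tested, and 18.5% of the genes were called lower, against 14.1% of all genes tested. The falls lay in receptor and ligand genes (2 of 3 tested, of which NOTCH4 passed the filter only through its vector libraries), receptor cleavage (2 of 8), glycosylation (1 of 5), ligand and receptor endocytosis and ubiquitin ligases (3 of 15, with 1 higher), corepressors (1 of 17) and targets (3 of 9), and 0 of 8 coactivators were called. The median log2 fold of the 65 was -0.14.

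Of the 8 receptor cleavage genes tested, 2 were called lower and 6 were not called. FURIN, the protease that cleaves the receptor on its way to the surface, was at 25.7, 19.3 and 26.5 TPM under ΔNp63α, against 73.6, 47.4 and 63.6 TPM with vector (log2 fold -1.32, SE 0.19, limma adjusted p = 0.000641). ADAM10, which cuts the receptor once a ligand has bound, was at 7.80, 11.4 and 10.2 TPM against 20.3, 19.9 and 23.8 TPM (log2 fold -1.06, SE 0.18, limma adjusted p = 0.00186). Neither gene's groups overlapped. ADAM17, a related protease, was not called (log2 fold -0.22, limma adjusted p = 0.435), and neither was any γ-secretase gene tested.

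Among the ubiquitin ligases, DTX2 and DTX4, of the Deltex family, fell, and FBXW7, whose product marks the receptor's intracellular domain for degradation, rose. DTX2 was at 20.6, 18.4 and 19.6 TPM under ΔNp63α, against 57.6, 61.8 and 63.0 TPM with vector, the largest fall on the lists (log2 fold -1.59, SE 0.15, limma adjusted p = 2.73e-05). FBXW7 was at 8.33, 12.2 and 11.3 TPM against 4.73, 3.49 and 4.23 TPM (log2 fold 1.16, SE 0.20, limma adjusted p = 0.00189). Both had groups far apart. DTX4 (log2 fold -0.78) and ITCH (log2 fold -0.72), a ligase that acts on Notch receptors, were lower at limma adjusted p = 0.00936 and 0.0178. DTX4 lost its call without vector replicate 3, and ITCH without ΔNp63α replicate 1 or vector replicate 3.

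RFNG, a Fringe enzyme that extends sugars on the receptor, and TLE1, a Groucho corepressor that works with HES proteins, were lower at log2 folds of -0.68 and -0.84 (limma adjusted p = 0.00844 and 0.00171). NOTCH4 was scarce, at 0.247, 0.249 and 0.414 TPM under ΔNp63α, against 1.31, 2.28 and 1.98 TPM with vector (log2 fold -1.12, SE 0.22, limma adjusted p = 0.00444). Its mean over all libraries, 1.08 TPM, passed the filter only through the vector libraries, and a gene that passes in this way has to differ. DLK2, a Delta-like protein without the usual receptor-binding domain, was at 11.4, 8.78 and 10.4 TPM against 23.1, 18.2 and 20.2 TPM (log2 fold -0.94, SE 0.18, limma adjusted p = 0.00296). In each of these 4 genes every ΔNp63α library lay below every vector library.

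Of the further targets, HES4 was the most abundant HES transcript, at 198.6, 177.1 and 209.9 TPM under ΔNp63α, against 307.7, 395.3 and 287.9 TPM with vector (log2 fold -0.75, SE 0.16, limma adjusted p = 0.00563). HES7, known from the segmentation clock of the embryo, was at 11.2, 16.4 and 14.9 TPM against 37.5, 27.2 and 22.6 TPM (log2 fold -0.97, SE 0.21, limma adjusted p = 0.00700). Both were lower in all ΔNp63α libraries. CDKN1A, which encodes the cell cycle inhibitor p21, was at 125.7, 128.7 and 131.3 TPM against 174.0, 181.6 and 180.1 TPM (log2 fold -0.47, SE 0.13, limma adjusted p = 0.0234). CDKN1A was no longer called after median-of-ratios rescaling (adjusted p = 0.0763) and without any of the ΔNp63α libraries or vector replicate 3.

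**Figure D3:**
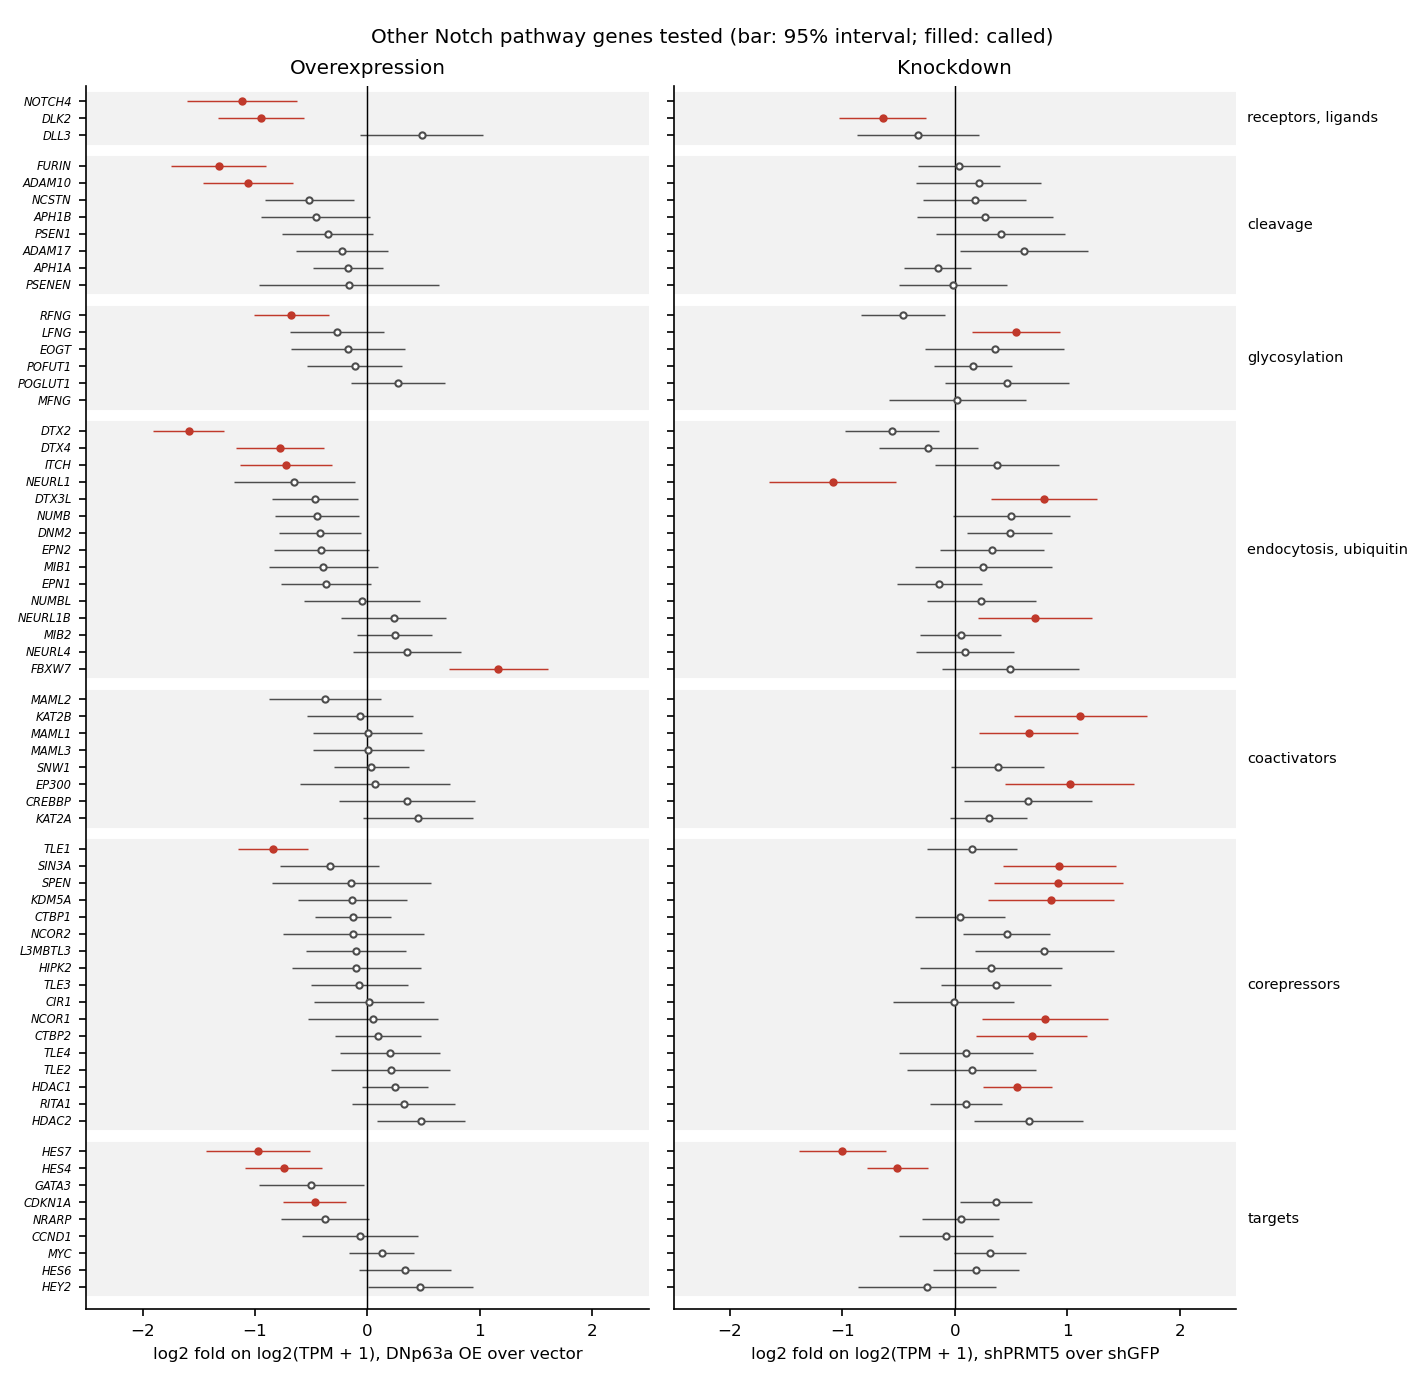
Log2 fold on the log2(TPM + 1) scale of the other Notch pathway genes tested, grouped by role, with ΔNp63α (DNp63a OE) over vector at left and shPRMT5 over shGFP at right. Bars are 95% intervals and filled points are called; a missing point was not tested in that table. The 12 lower calls at left span most roles, whereas coactivators and corepressors hold most of the 12 higher calls at right.

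No Notch member was called in the PRMT5 knockdown by the same test. With 2 libraries per group, this does not show that the members were unchanged. Of 9 members listed, 8 passed the filter and 0 were called by limma, where 18.6% of the 12635 genes tested were called, 15.1% higher and 3.48% lower. At an unadjusted p under 0.05 there was 1 member, NOTCH2. The groups did not overlap in 3 tested members that were higher under shPRMT5 and in 1 that was lower, where 49% and 14% of all genes tested had groups apart in those directions. The scale of the table bears on every direction here. The median log2 fold of all genes was 0.25, and median-of-ratios rescaling lowered it by 0.24, after which 457 genes were called higher and 868 lower in place of 1904 and 440. The members' median log2 fold was 0.24, next to that of all genes. In the overexpression the same rescaling gave 1495 higher and 1693 lower in place of 982 and 1893, and the median of all genes was 0.04 in place of -0.04.

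Before rescaling, HES1 was the only member tested with a negative log2 fold in the knockdown. After rescaling, JAG1, JAG2 and HES2 had negative log2 folds too. HES1 was at 57.9 and 65.5 TPM in shPRMT5 libraries, against 79.1 and 71.5 TPM in shGFP libraries. Both shPRMT5 libraries lay below both shGFP libraries, by a margin near the spread within the groups. The log2 fold was -0.28 (SE 0.18, 95% interval -0.65 to 0.08, limma adjusted p = 0.263), and after rescaling it was -0.56 (adjusted p = 0.0527). HES2 was at 22.6 and 27.4 TPM under shPRMT5, against 23.6 and 21.0 TPM under shGFP (log2 fold 0.15, limma adjusted p = 0.635; -0.12 after rescaling). HEY1 was at 1.95 and 2.64 TPM against 1.21 and 1.75 TPM (log2 fold 0.41, limma adjusted p = 0.337). The ratio of HES1 to HES2 was 2.56 and 2.39 under shPRMT5, against 3.36 and 3.40 under shGFP. Library scaling leaves this ratio unchanged, and it is given as a description without a test. In the overexpression the same ratio overlapped between groups, at 2.68, 3.61 and 2.91 under ΔNp63α against 2.87, 6.08 and 4.47 with vector.

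The receptor genes tested had positive log2 folds, without a call. NOTCH2 was at 12.2 and 18.4 TPM under shPRMT5, against 11.4 and 7.96 TPM under shGFP (log2 fold 0.60, 95% interval 0.09 to 1.12, limma adjusted p = 0.0884). NOTCH1 was at 20.6 and 24.0 TPM against 20.6 and 13.7 TPM (log2 fold 0.38, 95% interval -0.09 to 0.85, limma adjusted p = 0.240). In both, shGFP replicate 2 was the lowest library and shPRMT5 replicate 2 the highest. The folds depended on which shGFP library was kept. Without shGFP replicate 1 the log2 folds were 0.66 for NOTCH1 and 0.84 for NOTCH2. Without shGFP replicate 2 they were 0.10 and 0.37. After rescaling they were 0.11 (limma adjusted p = 0.775) and 0.34 (limma adjusted p = 0.355). NOTCH3 was at 1.13 and 1.32 TPM under shPRMT5, against 0.567 and 0.640 TPM under shGFP, under the filter on the mean. With no filter its log2 fold was 0.47 (limma adjusted p = 0.160).

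Neither the ligand genes nor RBPJ were called. JAG2 was at 187.7 and 199.1 TPM under shPRMT5, against 186.8 and 143.2 TPM under shGFP (log2 fold 0.24, limma adjusted p = 0.301; -0.04 after rescaling). It was called higher without shGFP replicate 1 (log2 fold 0.43, adjusted p = 0.00900). JAG1 was at 6.49 and 8.38 TPM against 7.24 and 6.74 TPM (log2 fold 0.07, 95% interval -0.45 to 0.59, limma adjusted p = 0.874; -0.18 after rescaling). RBPJ was at 2.81 and 2.96 TPM against 1.75 and 2.89 TPM (log2 fold 0.25, 95% interval -0.35 to 0.84, limma adjusted p = 0.577). Only JAG2 of these had groups apart, with shPRMT5 replicate 1 barely above shGFP replicate 1.

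DLL1 is not listed in the knockdown table used here, although it averaged 30.8 TPM in vector libraries of the other table. Of 9789 genes at 5 TPM or more with vector, 167 (1.71%) likewise are not listed there. The table holds no value of 0, and the level of DLL1 in shPRMT5 and shGFP cells was not analysed here.

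**Figure D4:**
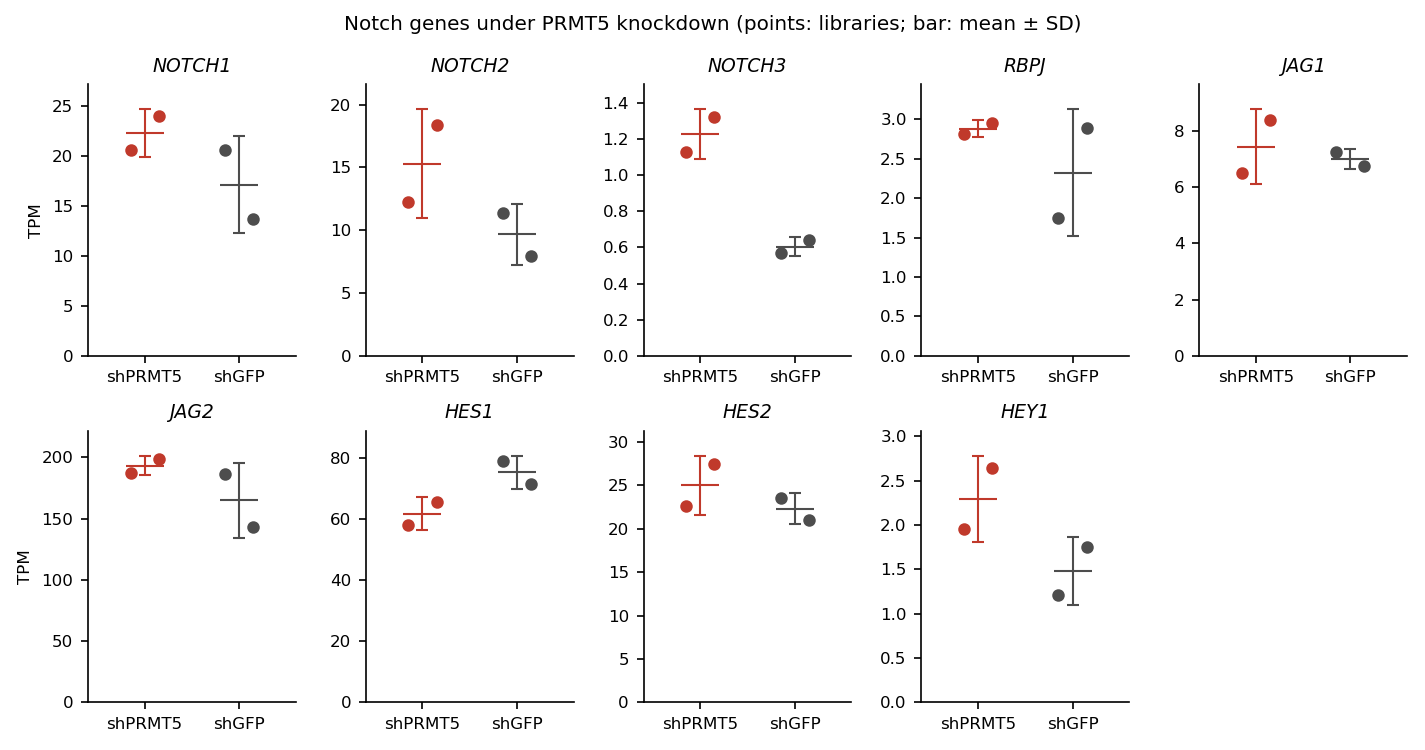
TPM of the 9 Notch genes listed in the knockdown table in each shPRMT5 and shGFP library. Points are libraries, and bars give the mean and SD of 2 libraries per group. HES1 is lower in both shPRMT5 libraries, and NOTCH2, NOTCH3, JAG2 and HEY1 are higher in both, with no called difference.

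Of the other pathway genes, 62 were tested in the knockdown, and 12 were called higher and 4 lower (25.8% called, against 18.6% of all genes tested). After rescaling 2 were called higher and 6 lower, where 3.62% of all genes were called higher and 6.88% lower. In all, 6 calls were kept, and 0 of the 16 calls were kept in every fit that left out 1 library. The higher calls were 3 of 6 coactivators, 6 of 17 corepressors, 2 of 15 endocytosis and ubiquitin ligase genes and 1 of 6 glycosylation genes, and the lower ones were 2 of 8 targets, 1 of 2 receptor and ligand genes and 1 endocytosis gene.

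The acetyltransferase genes KAT2B and EP300 had the largest rises. KAT2B was at 3.50 and 4.82 TPM under shPRMT5, against 1.45 and 1.27 TPM under shGFP with a log2 fold of 1.12 (limma adjusted p = 0.00941), and EP300 at 5.01 and 7.04 TPM against 2.78 and 2.11 TPM (log2 fold 1.02, SE 0.28, limma adjusted p = 0.0136). Both stayed called after rescaling (adjusted p = 0.0308 and 0.0472), and both lost the call without shPRMT5 replicate 2, EP300 also without shGFP replicate 2. MAML1, which encodes a Mastermind coactivator, was higher by a log2 fold of 0.66 (limma adjusted p = 0.0340). Of the corepressors, SIN3A (0.93), SPEN (0.92), KDM5A (0.85) and NCOR1 (0.80) had the largest log2 folds, with limma adjusted p between 0.0111 and 0.0405. After rescaling none of MAML1 and these 4 was called (adjusted p between 0.0519 and 0.233). The ligase genes DTX3L (log2 fold 0.79, limma adjusted p = 0.0184) and NEURL1B (0.71, adjusted p = 0.0453) and the Fringe gene LFNG (0.54, adjusted p = 0.0467) also lost their calls after rescaling.

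The 4 lower calls were DLK2, NEURL1, HES4 and HES7, and each was also called lower after rescaling. HES7 was at 40.3 and 34.1 TPM under shPRMT5, against 84.0 and 67.4 TPM under shGFP, a log2 fold of -1.002 (limma adjusted p = 0.000860), and its call was lost only without shPRMT5 replicate 2 among the fits that left out 1 library. HES4 was at 712.5 and 662.0 TPM against 1051 and 913.7 TPM (log2 fold -0.51, SE 0.13, limma adjusted p = 0.00980). It lost its call without either shPRMT5 library. NEURL1, a ligase that acts on ligands, was at 2.93 and 4.49 TPM against 10.7 and 7.28 TPM (log2 fold -1.09, limma adjusted p = 0.00866). DLK2 was at 47.5 and 43.5 TPM against 83.1 and 61.6 TPM (log2 fold -0.64, limma adjusted p = 0.0199). NEURL1 lost its call without shPRMT5 replicate 1 or shGFP replicate 1, and DLK2 without shGFP replicate 1 or either shPRMT5 library. In all 4 the shPRMT5 libraries lay below the shGFP libraries. DLK2, HES4 and HES7 were called lower both with ΔNp63α over vector and with shPRMT5 over shGFP. Of all genes tested, 14.1% were called lower under ΔNp63α and 3.48% in the knockdown. How many of all genes were called lower in both was not counted, so this overlap cannot be weighed. The set depends on scaling. After rescaling, DTX2 (log2 fold -0.83, limma adjusted p = 0.0154) and RFNG (-0.74, adjusted p = 0.0180) were also called lower in the knockdown. Both were called lower under ΔNp63α as well. No test compared the responses of the experiments, for HES1 included.

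**Figure D5:**
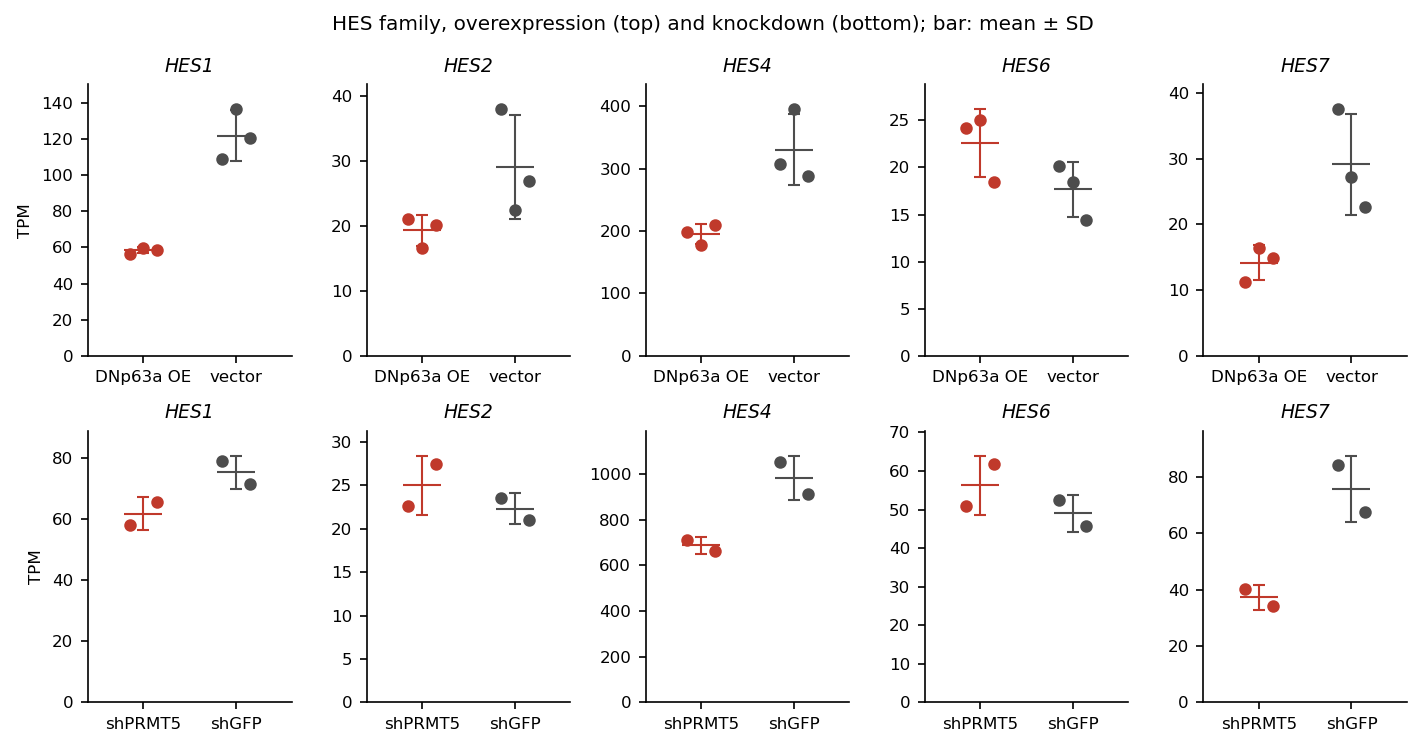
TPM of the 5 HES genes among the members and lists that were tested in both tables, with ΔNp63α (DNp63a OE) and vector libraries above and shPRMT5 and shGFP libraries below. Points are libraries and bars are the mean and SD (n = 3 per group above, n = 2 below). HES4 and HES7 are lower in ΔNp63α and in shPRMT5 libraries, HES1 is called lower in ΔNp63α libraries, and HES6 is called in neither experiment.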

How the data were processed

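Per the labels' protocols, total RNA was DNase treated and sent to a company for library construction and sequencing. The deposited values are TPM, in 1 table for each experiment. Per the submitters' processing notes, the tools were FastQC, Bowtie, featureCounts and DESeq2 1.24.0 and the build names hg19 and GRCh37, without their roles. The tool behind the TPM values was not stated there. Every column sums to 1000000 TPM over the genes listed, and 0 values equal 0. Blank rows (2 in the knockdown and 1 in the overexpression table) were left out. The overexpression table holds 16 mitochondrially encoded genes and that of the knockdown holds 0.

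Groups came from the sample titles. Genes with a mean of at least 1 TPM over a table were fitted, each table alone, as log2(TPM + 1) by limma 3.58.1 (R 4.3.3), using two-sided eBayes tests with a trend on mean expression. A call needed an adjusted p (Benjamini-Hochberg, over all genes tested) under 0.05. Folds on this scale understate changes of genes with low values, and a ratio to the vector level compares mean TPM. The fit was tested on simulated tables beforehand. Tables were prepared with Python 3.11.15 and pandas 2.3.3.

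The members, the lists of other pathway genes and the tests were chosen with earlier results of these data known. Named genes are the members, up to 4 called genes of largest fold per list and experiment, and the 3 genes most like HES1. A gene of the target list is not reported here and is left out of the counts over the lists. Alternatives were a pseudocount of 0.1 TPM, no filter or one at 5 TPM, median-of-ratios rescaling, quantile normalisation, no trend, no mitochondrially encoded genes, each library left out, a replicate block, 1 fit over both tables and a fold threshold of 1.5. Promoter sequences are from RefSeq (GRCh38.p14).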

Additional observations from a re-analysis of the deposited data

How the results depend on the processing

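Of 259 member values recomputed under the alternatives, 233 kept their direction and their side of the threshold, 12 gained a call, 6 lost one and 8 changed sign. HES1 and JAG1 stayed called lower under ΔNp63α in 15 of 16 alternatives each, and lost the call only when a fold above 1.5 was tested (adjusted p = 0.107 and 0.242); DLL1 stayed called in 11 of 15. In the knockdown, sign changes were those of JAG1 (-0.18), JAG2 (-0.041) and HES2 (-0.12) after rescaling, of JAG1 (-0.27), RBPJ (-0.0075) and HES2 (-0.088) after quantile normalisation, of JAG1 without shPRMT5 replicate 2 (range -0.092 to 0.23 with each library left out) and of RBPJ without shGFP replicate 1 (range -0.0037 to 0.50). The cause was not tested.

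Members called lower under ΔNp63α numbered 5 with a replicate block, 5 without mitochondrially encoded genes, 0 at the fold threshold, and 2 to 6 with each library left out. With vector replicate 2 left out the 6 included NOTCH1, NOTCH2 and HES2. Members called higher in the knockdown numbered 1 with the block (NOTCH2, adjusted p = 0.0291) and 0 to 3 with each library left out. The 16 calls among other pathway genes in the knockdown became 4 with no filter, 8 after rescaling, 7 after quantile normalisation, 8 without the trend, 7 in 1 fit, 0 at the fold threshold and 1 to 14 with each library left out, the lowest without shPRMT5 replicate 2. The 13 calls under ΔNp63α became 2 at the fold threshold. Of all genes, 2344 calls in the knockdown became 993, 1325, 965, 1153, 1496, 53 and 324 to 3101 in the same order, and 2875 under ΔNp63α became 378 at the fold threshold and 1576 to 3207 with each library left out. The block raised these to 3486 in the knockdown and 3889 under ΔNp63α, and leaving out mitochondrially encoded genes gave 3071 under ΔNp63α.

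The replicate numbers were not taken to pair the samples. Deviations from group means of same-numbered libraries correlated at 0.324, 0.231 and 0.0858 in the overexpression, where vector replicate 3 was nearer to ΔNp63α replicate 2 (0.137), and at 0.0866 in the knockdown. With the replicate block NOTCH1 (adjusted p = 0.00620) and HES2 (0.0183) were also called lower under ΔNp63α. Limits of depth cannot be given from TPM.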

Other observations

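Over the 6 overexpression libraries, the genes whose log2(TPM + 1) followed HES1 most closely among 7676 with a mean of at least 10 TPM were PLAUR (Pearson r = 0.998), NEU1 (r = 0.998) and C10orf10 (r = 0.997), given as a description over libraries that fall into 2 groups. PLAUR, the urokinase receptor, was at 4.14, 4.87 and 5.04 TPM in ΔNp63α libraries, against 16.5, 23.4 and 20.1 TPM in vector libraries. NEU1, a lysosomal sialidase, was at 21.1, 23.9 and 22.6 TPM against 41.1, 49.6 and 45.1 TPM. As with HES1, vector replicate 2 was the highest library for both genes, which follows from how they were picked. In all, 426 genes had an r of at least 0.95 with HES1, so a close match is common in these 6 libraries.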
